A study of Mus musculus with 8 samples.

Results

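The conjugation enzymes of mouse kidney were examined as 3 families: the UDP-glucuronosyltransferases (UGT), the cytosolic sulfotransferases (SULT) and the glutathione S-transferases (GST). Members were the protein-coding genes whose symbol is Ugt or Sult followed by a number, or Gst followed by the class letter a, m, o, p, k, t or z and a number. The rule found 65 of the 54532 genes in the table: 22 UGT, 21 SULT and 22 GST genes. Polyadenylated RNA had been sequenced from kidney of ICR mice, an outbred stock, in 4 libraries given bisphenol A (BPA), a building block of polycarbonate, and in 4 given vehicle alone. The sources used here do not give the dose, route, duration, sex or age. They also do not say whether each library is its own animal, so a p-value here reflects only library-to-library spread, which may be technical.

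Conjugation makes a lipophilic compound water soluble so that it can leave in bile or urine. UGTs transfer a sugar, mostly glucuronic acid from UDP-glucuronic acid, SULTs transfer sulfate from the donor PAPS, and GSTs add glutathione to electrophiles. BPA, a phenol, is cleared mainly as its glucuronide and to a lesser degree as its sulfate, while glutathione meets its oxidised quinone products. The kidney conjugates, and its proximal tubule also takes up and secretes conjugates made in the liver.

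Levels are given as FPKM, reads scaled by gene length and library size, so that genes can be compared with each other. The libraries held 15944081 to 17351540 recovered reads. Kidney identity was shown by 11 of 11 proximal tubule markers above the filter, among them the uptake receptor Lrp2 at 151 to 236 FPKM, while the steroid synthesis gene Cyp11a1 of the adrenal was at 0 in all 8 libraries. All 6 adrenal markers missed the filter, but 4 had some reads. Their summed level was 0.058 to 0.953 FPKM, highest in vehicle replicate 4. Of 6 liver markers 3 passed the filter, with a summed level of 973 to 1998 FPKM. Nearly all of that was Cyp2e1 (970.4 to 1989 FPKM), which mouse kidney also expresses. Albumin (Alb) was at 1.84 to 4.23 FPKM in vehicle and 2.40 to 10.5 FPKM in BPA (change 0.96, limma adjusted p = 0.416), Apoa2 at 0 to 1.61, and Apoa1, Ttr and Serpina1a at 0.793 FPKM or less. Some libraries stood apart. BPA replicate 4 had 17174 genes above 0 against 19090 to 20845 in the others, and the highest mitochondrial share of reads, 14.2%. That share moved with the groups: it was 7.02 to 8.33% in vehicle and 9.66 to 9.85% in the other 3 BPA libraries, so every BPA library was above every vehicle library. BPA replicate 4 also had the lowest sum over the 11 proximal tubule markers, 35316 FPKM against 50299 to 67125 in the others. Its sum over 6 immune and blood markers was the highest, 739 FPKM against 277 to 591. Such sums are weighted towards the most abundant genes of a list and need not hold for each marker. Lrp2, at 236 FPKM or less, made up little of the proximal tubule sum. Vehicle replicate 4 carried skeletal muscle transcripts (224 FPKM summed over 5 markers, against at most 1.17 elsewhere) and the most fat transcripts (51.0 FPKM over 5 markers, against at most 20.7). That 20.7 was in vehicle replicate 2, which also had the highest sum over 5 urothelial markers, 6.08 FPKM. Vehicle replicate 4 had 1.996 FPKM over these urothelial markers and the other libraries 0.141 to 0.292, and all 5 missed the filter. Vehicle replicate 4 was also lowest in distal nephron and collecting duct markers (324 FPKM over 9 genes, against 531 to 936 in the others). Vehicle replicates 3 and 4 were low in glomerular and endothelial markers (16.7 and 15.9 FPKM over 6 genes, against 38.2 to 73.6 in the others). The clock gene Arntl, at 2.22 to 4.27 FPKM in replicates 1 and 2 and 0.106 to 0.550 in replicates 3 and 4 of both groups, divided the libraries in another way. The part these differences play in the results below was not tested unless a value without the library is given.

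With a mean of 0.5 FPKM or more required, 31 members were tested: 10 UGT, 4 SULT and 17 GST genes. Of the other 34, 22 had some reads and 12 had 0 reads in every library. By level, 7 members had a mean of at least 100 FPKM, 8 lay between 10 and 100, 15 between 1 and 10, and 1 tested member lay below 1. The 7 were Ugt2b38, Ugt3a2, Sult1d1, Gstm1, Gstp1, Ugt3a1 and Sult1c2. Each family was carried by a few genes: Ugt2b38 made up 54.4 to 70.2% of the summed UGT FPKM in a library, Sult1d1 66.8 to 74.5% of the SULT sum, and Gstm1 with Gstp1 52.9 to 59.7% of the GST sum in vehicle. In BPA that share was 48.5, 59.3, 62.6 and 40.0% in replicates 1 to 4, and lay on both sides of the vehicle range.

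**Figure D1:**
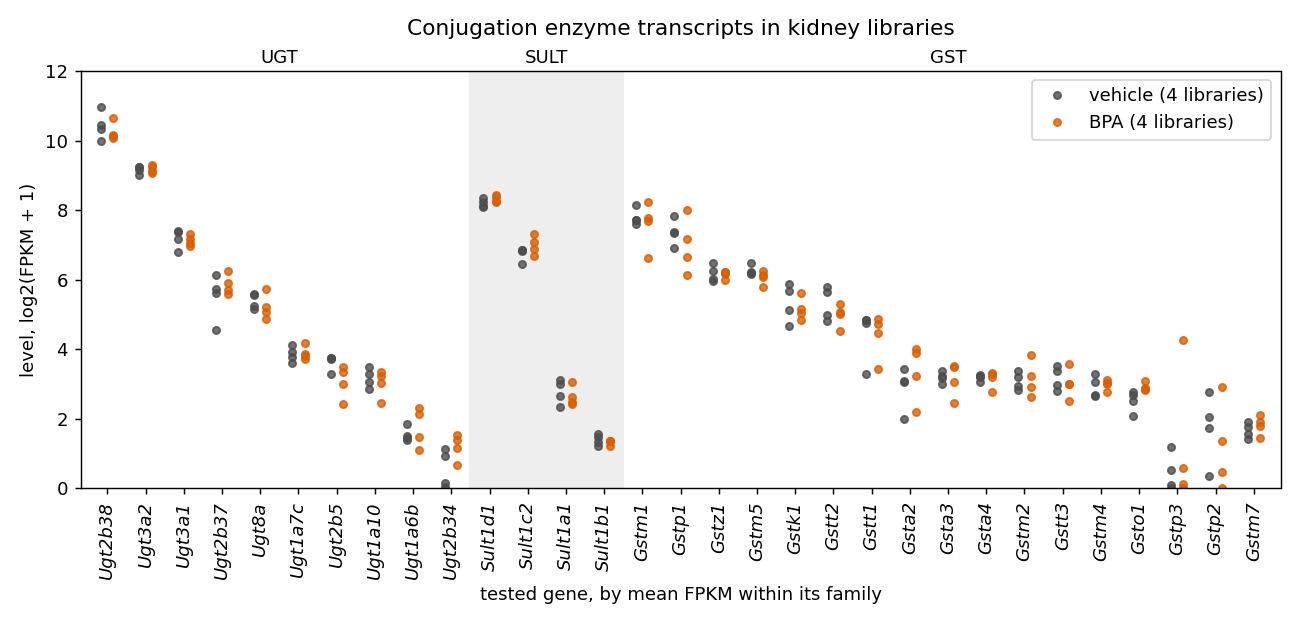
Level of each of the 31 tested conjugation enzyme genes as log2(FPKM + 1), ordered by mean within its family; each point is 1 library, grey for the 4 vehicle and orange for the 4 BPA libraries. Ugt2b38 is highest, and vehicle and BPA points overlap for 30 of the 31 genes.

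BPA and vehicle were compared to ask whether exposure altered the transcripts of the enzymes that clear BPA. Change is BPA minus vehicle: 13 of the 31 members had a positive and 18 a negative change, and the median was -0.04 on the log2(FPKM + 1) scale beside -0.01 over all 13376 tested genes. By limma with Benjamini-Hochberg adjustment over all tested genes, 0 members were called at an adjusted p under 0.05, where 0.00748% of all tested genes were called; the smallest adjusted p of a member was 0.429. At an unadjusted p under 0.05, 1 member was higher (Gsto1) and 1 lower (Ugt2b5), where 4.18% and 6.83% of all tested genes were. The groups did not overlap in 1 member, higher in BPA (Gsto1), where 3.23% of all tested genes were higher without overlap; for lower without overlap the counts were 0 members and 4.66%, and for either direction 1 member and 7.89%. A doubling or halving of a well-expressed gene is a change of 1 or -1. The 95% interval of the change lay inside -1 to 1 in 23 members and reached past it in 8. The 23 include low genes, such as Ugt1a6b (vehicle mean 1.94 FPKM, interval -0.37 to 0.82). For low genes a doubling is a change clearly below 1, so the interval may still hold it. At an unadjusted p under 0.05 and by overlap, the members did not stand out from all genes in these counts.

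**Figure D2:**
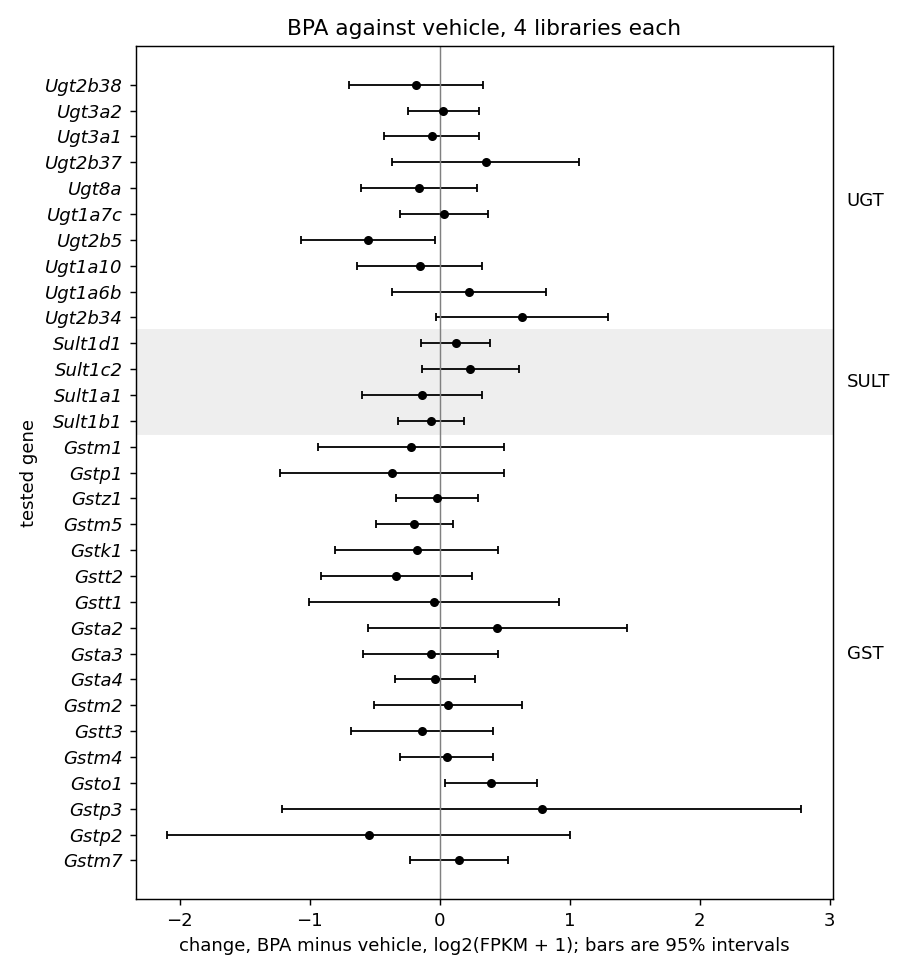
Change of each tested member, BPA minus vehicle, on the log2(FPKM + 1) scale, with the 95% interval from limma (4 libraries against 4). The intervals of Ugt2b5 (-1.07 to -0.03) and Gsto1 (0.04 to 0.75) leave out 0 before adjustment, and those of Gstp2 and Gstp3 are widest.

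The Ugt2b genes, which glucuronidate steroids and xenobiotics, form a cluster on chromosome 5 and hold both the highest and some of the lowest UGT transcripts. Ugt2b38 (87409942 to 87424203, minus strand, GRCm38), Ugt2b37 (87240493 to 87254804) and Ugt2b5 (87124960 to 87140318) are close copies. The longest annotated transcript of Ugt2b38 aligned with 95.5% identity to that of Ugt2b5 and with 93.3% to that of Ugt2b37, so the assignment of reads among them is uncertain. Their sequences just upstream of the RefSeq start sites are shown because genes of so different levels share a run of promoter sequence. Each line gives 150 bases, 5′ to 3′ on the minus strand of GRCm38.p6, at chr5:87424204-87424353, chr5:87254789-87254938 and chr5:87140341-87140490, and capitals mark the longest run that all 3 share, 62 bases.
Ugt2b38: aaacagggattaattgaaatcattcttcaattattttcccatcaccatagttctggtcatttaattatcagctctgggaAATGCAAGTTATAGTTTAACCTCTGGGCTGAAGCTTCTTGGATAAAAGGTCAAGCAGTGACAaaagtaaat
Ugt2b37: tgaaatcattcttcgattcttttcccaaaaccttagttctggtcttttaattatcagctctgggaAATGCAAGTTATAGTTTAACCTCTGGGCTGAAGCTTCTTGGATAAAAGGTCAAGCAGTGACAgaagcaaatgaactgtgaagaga
Ugt2b5: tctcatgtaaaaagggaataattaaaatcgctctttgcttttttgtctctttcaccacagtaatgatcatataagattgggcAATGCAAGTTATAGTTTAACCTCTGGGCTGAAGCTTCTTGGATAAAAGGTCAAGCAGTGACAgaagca
The window of Ugt2b38 aligned with that of Ugt2b37 over 136 bases at 94.1% identity and with that of Ugt2b5 over 147 bases at 81.0%.

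Ugt2b38 was at 1306, 1009.8, 1409 and 2000.4 FPKM in vehicle replicates 1 to 4 and at 1081, 1119.7, 1597 and 1156 FPKM in BPA replicates 1 to 4. The groups overlapped, with the highest value in vehicle replicate 4, and the gene ranked 21 among all genes of the table by mean FPKM. Its change was -0.18 (SE 0.226, 95% interval -0.70 to 0.33, limma adjusted p = 0.755). It rested on single libraries: it was -0.01 without vehicle replicate 4, the library with muscle and fat transcripts, -0.34 without vehicle replicate 2 and -0.31 without BPA replicate 3. Ugt2b37, with the same shared run, was at 51.8, 22.5, 69.5 and 47.7 FPKM in vehicle and at 51.1, 58.8, 74.6 and 46.9 FPKM in BPA. Vehicle replicate 2 was the low library, and the change of 0.35 (95% interval -0.36 to 1.07, limma adjusted p = 0.662) was 0.03 without it. Ugt2b38 exceeded Ugt2b37 by 19.0 to 45.0 times and Ugt2b5 by 105 to 261 times in the 8 libraries.

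Ugt2b5 was the tested UGT with the smallest unadjusted p among those lower in BPA. It was at 12.4, 8.79, 12.5 and 12.1 FPKM in vehicle and at 9.15, 7.08, 10.3 and 4.43 FPKM in BPA. All 4 BPA libraries lay below the vehicle mean, but vehicle replicate 2 lay within the BPA range. The change was -0.55 (SE 0.228, limma unadjusted p = 0.0390, adjusted p = 0.435), and -0.34 without BPA replicate 4, the lowest library. Replicates 1 and 2 alone gave -0.34, and replicates 3 and 4 alone gave -0.76.

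Ugt2b34, at the end of the same cluster (86889767 to 86906937), was low and uneven, at 1.18, 0.921, 0.120 and 0.0267 FPKM in vehicle and 1.62, 1.25, 1.92 and 0.603 FPKM in BPA. Vehicle replicates 3 and 4 held 8 and 2 reads of it, against 43 to 135 in the other libraries. These are the same 2 libraries that were low in glomerular and endothelial markers, such as the endothelial sialomucin Emcn (1.74 and 1.78 FPKM there, 3.26 to 9.34 in the others). Among the other libraries the sum of these markers was lowest in BPA replicate 3 (38.2 FPKM), where Ugt2b34 was highest. The sum was 60.9 FPKM in BPA replicate 4, where Ugt2b34 was lowest among them. How far the markers bear on Ugt2b34 was not tested. Its change of 0.63 (SE 0.291, 95% interval -0.03 to 1.29, limma adjusted p = 0.463) came to 0.25 in replicates 1 and 2 alone and to 1.01 in replicates 3 and 4 alone. On recovered reads by limma-voom, a scale without the pseudocount of 1, the change was 2.20 (adjusted p = 0.431). In bulk tissue, fewer cells of a type and less RNA per cell cannot be told apart.

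Other members of the cluster were near or at 0. Ugt2b1, whose rat counterpart is a well-known hepatic BPA glucuronosyltransferase, and Ugt2b36 had 0 reads in all 8 libraries, which allows up to 0.0753 and 0.0942 FPKM in a library (3 reads, counting error only). Ugt2b35 had 2 reads in vehicle and 0 in BPA. Ugt2a3 had 61 reads in vehicle and 79 in BPA and missed the filter narrowly with a mean of 0.492 FPKM, while the olfactory genes Ugt2a1 and Ugt2a2 had 0. Of their exonic bases, 98.8% and 94.5% are shared with other genes, so these zeros depend on how shared bases were counted. BPA replicate 3 alone held 45 of the 79 Ugt2a3 reads.

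The Ugt3a pair, whose human counterparts use sugars other than glucuronic acid, was the next most abundant UGT group and the least variable. Ugt3a2 (chromosome 15, 9335550 to 9370955, plus strand) was at 514, 568, 608 and 601 FPKM in vehicle and 628, 554, 612 and 541 FPKM in BPA. The highest library exceeded the lowest by only 1.22 times, and the change of 0.03 had a 95% interval of -0.25 to 0.30 (limma adjusted p = 0.941). Its neighbour Ugt3a1 (9276888 to 9315032) was at 169, 143, 166 and 111 FPKM in vehicle and 158, 125, 145 and 132 FPKM in BPA (change -0.06, 95% interval -0.43 to 0.30, adjusted p = 0.885). Ugt3a1 and Ugt3a2 aligned with 91.7% identity over 2243 bases. Ugt8a, which makes galactosylceramide for myelin and for the sulfatides of the kidney, was at 37.0, 34.7, 46.2 and 47.5 FPKM in vehicle and 32.9, 28.4, 52.5 and 36.5 FPKM in BPA (change -0.16, limma adjusted p = 0.754). Its groups overlapped, and BPA held both the lowest and the highest library.

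The Ugt1a genes, which include the bilirubin enzyme Ugt1a1, are alternative first exons joined to common downstream exons on chromosome 1, so much of their exonic sequence is shared. In GENCODE release M21, 50.3 to 82.7% of the exonic bases of the 9 genes were shared with other annotated genes, and Ugt1a1 had 17.3% of its own. The shared bases include overlap with Gm20528 on the opposite strand, so they do not measure the common exons alone. The counting rule for such bases is not given in the sources used here, and the Ugt1a levels depend on it. Ugt1a7c was highest, at 11.1 to 16.5 FPKM in vehicle and 12.2 to 17.3 FPKM in BPA (change 0.03, limma adjusted p = 0.943). Ugt1a10 was at 6.24 to 10.2 and 4.49 to 9.10 FPKM, and Ugt1a6b at 1.60 to 2.58 and 1.17 to 3.99 FPKM. Groups overlapped in all 3. The remaining 6 missed the filter: Ugt1a6a had 113 reads in vehicle and 103 in BPA, Ugt1a9 had 41 and 46, Ugt1a2 had 9 and 15, Ugt1a1 had 3 and 8, Ugt1a5 had 0 and 1, and Ugt1a8 had 0 in both.

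**Figure D3:**
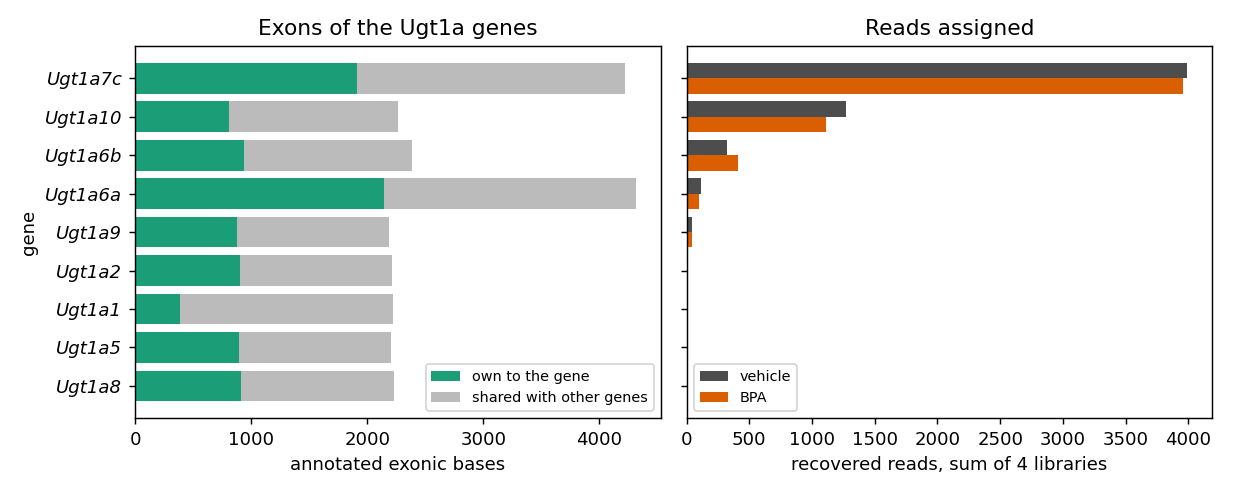
Left, annotated exonic bases of the 9 Ugt1a genes, divided into bases of the gene alone (green) and bases shared with other genes (grey); right, recovered reads assigned to each gene, summed over 4 vehicle (grey) and 4 BPA (orange) libraries. Ugt1a7c took the most reads, and Ugt1a1 has the smallest part of its own.

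Sulfotransferase transcripts were nearly confined to family 1: its 4 tested genes were the only SULT members past the filter, and 17 of 21 missed it. Sult1d1, which sulfates catecholamines and small phenols, lies on chromosome 5 (87554645 to 87569027, minus strand). It was at 299.9, 274, 327 and 280.4 FPKM in vehicle and at 344, 302, 331 and 306 FPKM in BPA. All 4 BPA libraries lay above the vehicle mean, with overlapping groups (change 0.12, SE 0.116, 95% interval -0.14 to 0.38, limma adjusted p = 0.683). Its transcript has a GC content of 32.9%, the lowest among the tested members, and after correction for GC the change was -0.08.

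Sult1c2 (chromosome 17, 53829637 to 53846339) was at 114, 87.5, 113 and 115 FPKM in vehicle and 134, 101, 157 and 118 FPKM in BPA. The BPA libraries other than replicate 2 lay above all vehicle libraries (change 0.23, 95% interval -0.14 to 0.61, limma adjusted p = 0.586), and the change was 0.15 with GC correction, 0.13 when BPA replicate 3 was left out and 0.14 when vehicle replicate 2 was. Sult1a1, the phenol sulfotransferase whose human counterpart sulfates BPA, was low, at 5.29, 4.05, 7.08 and 7.64 FPKM in vehicle and 4.55, 7.31, 5.13 and 4.38 FPKM in BPA (change -0.14, 95% interval -0.60 to 0.33, adjusted p = 0.800). Sult1d1 exceeded it in every library. Sult1b1, an enzyme of thyroid hormone sulfation, was at 1.35 to 1.97 FPKM in vehicle and 1.35 to 1.60 FPKM in BPA (change -0.07, limma adjusted p = 0.820).

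The steroid sulfotransferases were barely detected. The estrogen sulfotransferase Sult1e1 had 5 reads in vehicle and 5 in BPA, and the cholesterol sulfotransferase Sult2b1 had 12 and 8. Of the 8 Sult2a genes, which sulfate dehydroepiandrosterone and bile acids, Sult2a1, Sult2a2, Sult2a5, Sult2a6 and Sult2a7 had 0 reads, and Sult2a3, Sult2a4 and Sult2a8 had 10, 2 and 1 over all libraries; 8 of the 10 Sult2a3 reads came from BPA replicate 2. Sult3a1 and Sult3a2 had 0. Sult5a1, the fifth SULT by level, had 59 reads in vehicle and 30 in BPA, at 0.148 to 0.222 and 0.0268 to 0.153 FPKM. The brain enzyme Sult4a1 had 16 of its 26 reads in vehicle replicate 4. All 10 reads of Sult1c1 came from BPA replicate 3, and Sult6b1 and Sult6b2 had 9 and 12 reads in all.

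The GST family was the broadest, with 17 of 22 genes tested: 3 of class alpha, 5 mu, 3 pi, 3 theta, and 1 each of kappa, omega and zeta. The tested GST genes had 6 members higher and 11 lower (median change -0.04), and a median transcript GC content of 51.7% beside 41.2% in the UGT genes, while all tested genes had 49.7%. Of the 17, 8 had their lowest value in BPA replicate 4 alone, as did 9 of all 31 tested members and 28.0% of all tested genes. Gstp3, at 0 both there and in vehicle replicate 1, is not in these counts.

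Gstm1, of the mu class that conjugates many electrophiles, lies on chromosome 3 (108012255 to 108017973, minus strand) in a row of mu genes. It was at 192, 211, 282 and 210.7 FPKM in vehicle and 204, 302, 216 and 97.0 FPKM in BPA. BPA held both the highest and the lowest library, and the change of -0.22 (95% interval -0.94 to 0.49, limma adjusted p = 0.787) was 0.10 without BPA replicate 4. Gstm5, at the outer end of the row, was at 72.7, 73.2, 87.9 and 70.3 FPKM in vehicle and 74.8, 68.9, 66.6 and 54.9 FPKM in BPA (change -0.20, SE 0.131, 95% interval -0.49 to 0.10, adjusted p = 0.562). All 4 BPA libraries of Gstm5 lay below the vehicle mean, though the groups overlapped, and 13.9% of its exonic bases are shared with a gene on the opposite strand. The other tested mu genes, Gstm2, Gstm4 and Gstm7, lay between 1.71 and 13.3 FPKM, with changes of 0.06, 0.05 and 0.15. Gstm3 and Gstm6 missed the filter with 7 and 44 reads over all libraries.

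The pi class, 3 genes in a row on chromosome 19, differed more between libraries than between groups. Gstp1 (4035407 to 4037921, minus strand) and Gstp2 (4040285 to 4042236) aligned with 98.2% identity over 707 bases, so the reads of Gstp2 in particular are uncertain, whereas Gstp3 (4057477 to 4059446) aligned to Gstp1 with 74.8%. Their upstream sequences are shown because Gstp1 is the only one of the 3 expressed highly in all libraries while Gstp2 has a related promoter. Each line gives the 150 bases before the RefSeq start site, 5′ to 3′ on the minus strand of GRCm38.p6, at chr19:4037913-4038062, chr19:4042222-4042371 and chr19:4059448-4059597, and capitals mark the longest run shared by Gstp1 and Gstp2, 34 bases.
Gstp1: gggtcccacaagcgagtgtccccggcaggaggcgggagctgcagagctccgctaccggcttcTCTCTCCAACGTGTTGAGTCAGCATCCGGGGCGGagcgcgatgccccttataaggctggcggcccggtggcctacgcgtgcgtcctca
Gstp2: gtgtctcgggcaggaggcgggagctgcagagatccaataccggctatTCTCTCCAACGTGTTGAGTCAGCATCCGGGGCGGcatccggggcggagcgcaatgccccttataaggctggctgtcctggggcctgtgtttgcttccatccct
Gstp3: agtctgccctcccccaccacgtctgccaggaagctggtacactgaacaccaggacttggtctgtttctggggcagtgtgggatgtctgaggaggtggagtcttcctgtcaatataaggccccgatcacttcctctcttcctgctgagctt
The run holds TGAGTCAGC, an AP-1 site extended on 1 side as in sites of the NRF2 and small MAF proteins; these letters were chosen after the sequences were seen. Searched on both strands over the 250 bases before the start, TGAGTCAGC was found in 2 of 68 promoters of 57 members (those of Gstp1 and Gstp2) and in 0.347% of all 32851 promoters in the table. The shorter TGAGTCA, which it contains, was in 7 of the 68 and in 4.46% of all. The antioxidant response element core TGACNNNGC was found in 3, those of Gsta3, Gstm5 and Gstm7, and in 10.2% of all. The core of the aryl hydrocarbon receptor site, GCGTG, was found in 12, and in 28.2% of all. A match describes letters only.

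Gstp1 was at 161, 226, 119 and 166 FPKM in vehicle and 100.5, 144, 259 and 69.1 FPKM in BPA. The groups overlapped widely, with both extremes in BPA (change -0.37, SE 0.378, 95% interval -1.23 to 0.49, limma adjusted p = 0.702). Leaving out BPA replicate 4 gave -0.08, leaving out vehicle replicate 2 gave -0.21 and leaving out BPA replicate 3 gave -0.71. Gstp2 was at 0.284, 2.33, 3.19 and 5.83 FPKM in vehicle and 0.374, 6.54, 1.60 and 0 FPKM in BPA, from 0 reads in BPA replicate 4 to 85 in BPA replicate 2. Gstp3 was at 0, 0.0789, 0.456 and 1.30 FPKM in vehicle and 18.5, 0.501, 0.0866 and 0 FPKM in BPA. BPA replicate 1 held 227 reads of it, where the other libraries had 0 to 16, and that library had only 5 reads of Gstp2. The changes of Gstp2 (-0.55, SE 0.682) and Gstp3 (0.78, SE 0.878) had limma adjusted p of 0.759 and 0.728. Gstp2 and Gstp3 are outside the rule for named genes and were chosen after their values were seen.

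The theta class, with 3 tested genes, acts on small halogenated compounds. Gstt2 and Gstt3 ranked the libraries of each group in the same order, and Gstt1 in another. Gstt1 (chromosome 10, 75783813 to 75798584, minus strand) was at 27.7, 25.8, 8.71 and 27.6 FPKM in vehicle and 28.4, 25.5, 9.85 and 21.3 FPKM in BPA. Both libraries numbered 3 held less of it, 206 and 245 reads against 539 to 775, and the change between the groups was -0.04 (SE 0.423, limma adjusted p = 0.972). Gstt1 was also chosen after its values were seen. Its neighbour Gstt2 (75831114 to 75837424), at 27.0, 30.6, 54.4 and 49.6 FPKM in vehicle and 31.1, 32.7, 38.5 and 22.0 FPKM in BPA, was highest of its group in both libraries numbered 3. All 4 BPA libraries of Gstt2 lay below the vehicle mean (change -0.33, 95% interval -0.92 to 0.25, adjusted p = 0.616), with a change of 0.15 within replicates 1 and 2 and -0.81 within replicates 3 and 4. Gstt3, also described after its values were seen, was at 5.997, 6.86, 10.4 and 9.31 FPKM in vehicle and 6.94, 7.09, 11.0 and 4.69 FPKM in BPA, highest in the libraries where Gstt1 was lowest. Gstt4 had 4 reads in vehicle and 0 in BPA.

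**Figure D4:**
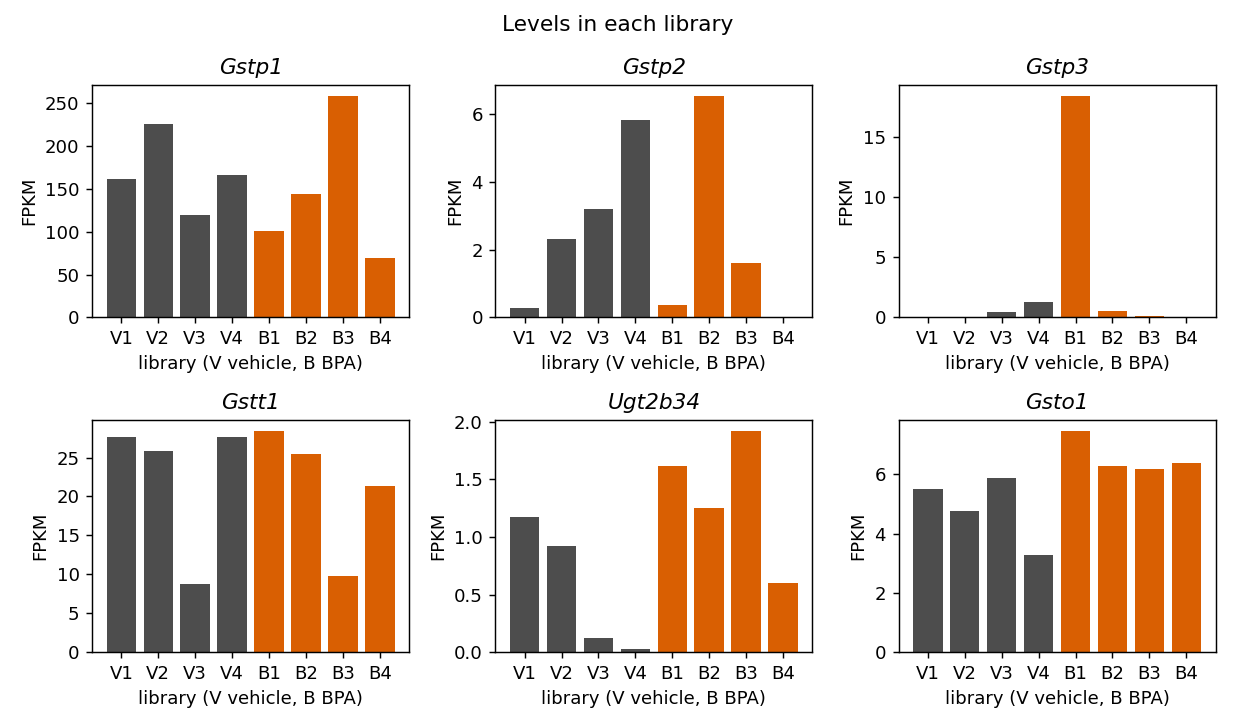
FPKM in each library (V1 to V4 vehicle, grey; B1 to B4 BPA, orange) of Gstp1, Gstp2, Gstp3, Gstt1, Ugt2b34 and Gsto1. Gstp3 reaches 18.5 FPKM in BPA replicate 1 alone, Gstt1 is low in both libraries numbered 3, and Gsto1 is the gene without overlap between groups.

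Gsto1, of the omega class, which reduces rather than conjugates and recycles dehydroascorbate, had the smallest unadjusted p of all members. It lies on chromosome 19 (47854970 to 47864790, plus strand) and was at 5.49, 4.75, 5.88 and 3.28 FPKM in vehicle and 7.47, 6.29, 6.18 and 6.40 FPKM in BPA. Every BPA library was above every vehicle library, resting on 112 to 255 reads per library. The change of 0.39 (SE 0.155, 95% interval 0.04 to 0.75, limma unadjusted p = 0.0316) had an adjusted p of 0.429, and replicates 1 and 2 alone gave 0.36, replicates 3 and 4 alone 0.43. Without vehicle replicate 4, the lowest library and the one with muscle transcripts, it was 0.25. Its neighbour Gsto2 had 31 reads in each group.

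The remaining classes varied without a difference between groups that passed the test. Gstz1, which isomerises maleylacetoacetate in tyrosine breakdown, was at 63.5, 61.6, 87.9 and 75.7 FPKM in vehicle and 70.6, 73.9, 74.3 and 62.9 FPKM in BPA (change -0.02, 95% interval -0.34 to 0.29, limma adjusted p = 0.953). Gstk1, the kappa enzyme of mitochondria and peroxisomes, was at 24.7, 50.3, 33.9 and 58.0 FPKM in vehicle and 31.7, 35.1, 27.6 and 48.2 FPKM in BPA (change -0.18, adjusted p = 0.810). Vehicle held both extremes of Gstk1. In the alpha class, Gsta4, which conjugates the lipid peroxidation product hydroxynonenal, was at 7.32 to 8.53 and 5.83 to 8.97 FPKM, and Gsta3 at 7.05 to 9.41 and 4.50 to 10.4 FPKM. Gsta2 was at 2.98 to 9.77 and 3.55 to 15.1 FPKM (change 0.44, limma adjusted p = 0.693), lowest in both libraries numbered 4, and its transcript aligned with 97.2% identity to that of Gsta1. Gsta1 missed the filter with 21 reads, of which 17 came from vehicle replicate 1.

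Variation between libraries of a group was somewhat larger in the UGT and GST genes than in all genes, but not in the SULT genes. The median within-group SD of log2(FPKM + 1) was 0.341 over the 31 tested members and 0.225 over all tested genes, and 23 members lay above the latter. By family it was 0.340 in UGT, 0.175 in SULT and 0.408 in GST. Members and all genes were not matched by level, which also affects this SD. In 17 of the 31 the sign of the change differed between replicates 1 and 2 and replicates 3 and 4. The share of all tested genes with such a difference was not computed. The summed FPKM of the families overlapped between the groups: 1817 to 2848 in vehicle and 1914 to 2525 in BPA for UGT, 367 to 450 and 413 to 496 for SULT, and 623 to 740 and 415 to 759 for GST.

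The genes around the conjugation step were read from lists of cofactor supply, membrane glutathione transferases, deconjugation and mercapturate formation, transport, regulators and receptor targets. Values were found for 63 listed genes and 56 were tested; 26 were higher and 30 lower (median change -0.04), and 0 were called by limma's adjusted p. At an unadjusted p under 0.05, 3 were higher and 5 lower, and 2 were higher and 2 lower without overlap between the groups, against the shares of all genes given above. Of the donor enzymes, Ugdh, which makes UDP-glucuronic acid, was at 11.7 to 16.9 FPKM in vehicle and 10.9 to 18.3 FPKM in BPA. Papss2, which makes PAPS, was higher, at 78.0 to 114 and 99.3 to 183 FPKM, with its highest value in BPA replicate 4. Gclc, the rate-limiting subunit of glutathione synthesis, was at 82.5, 83.8, 70.3 and 64.4 FPKM in vehicle and 102, 90.5, 92.3 and 91.3 FPKM in BPA. All 4 BPA libraries exceeded the vehicle libraries (change 0.32, SE 0.121, limma unadjusted p = 0.0258, adjusted p = 0.408).

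Mgst1, a membrane-bound glutathione transferase, was at 9.19 to 16.2 FPKM in vehicle and 4.90 to 13.6 FPKM in BPA. Gusb, the lysosomal glucuronidase that splits glucuronides, was at 23.5 to 54.3 and 16.7 to 61.4 FPKM, and the conjugate efflux pump Abcc2 at 18.4 to 32.3 and 21.9 to 43.2 FPKM. The sulfatase gene Sts was not analysed here. The regulators Nfe2l2, which encodes NRF2, and Ahr were at 15.4 to 21.7 and 16.6 to 19.9 FPKM, and at 0.738 to 1.39 and 0.967 to 1.78 FPKM. Nqo1, a target of both, was at 25.6 to 29.8 and 22.0 to 31.6 FPKM. The groups overlapped in each of these genes. Chosen after their values were seen, as the genes behind the counts, the others higher at an unadjusted p under 0.05 were the efflux pumps Abcc4 (change 0.60) and Abcg2 (0.31, without overlap), and those lower were Maff (-0.82) and Keap1 (-0.27), both without overlap, Nat8 (-0.90), Ltc4s (-0.54) and Mafg (-0.34), with limma adjusted p from 0.365 to 0.434.

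**Figure D5:**
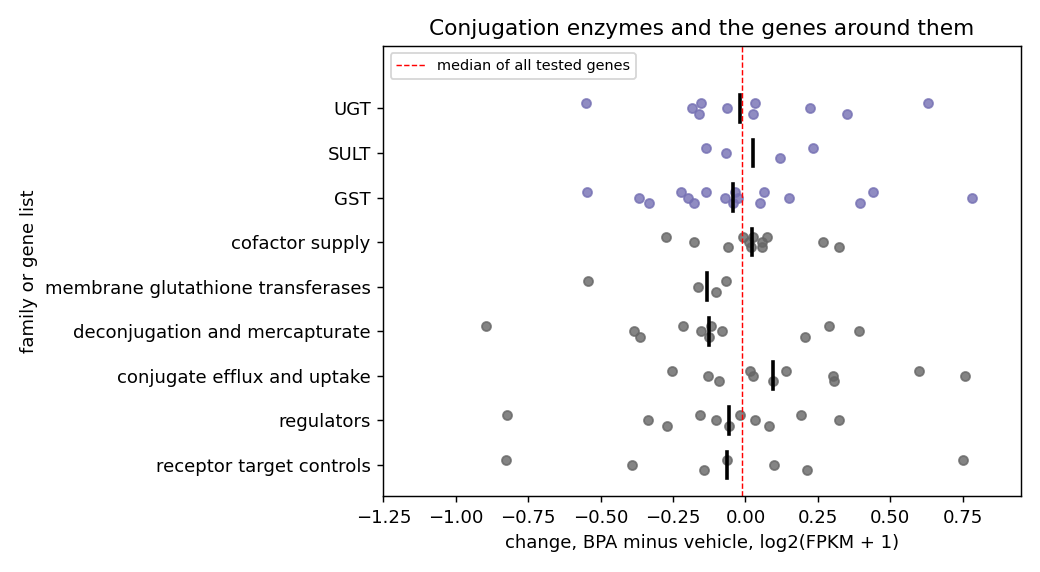
Change of each tested gene, BPA minus vehicle, on the log2(FPKM + 1) scale, by conjugation family (purple) and by list of neighbouring genes (grey); black bars are medians, and the dashed line is the median of all 13376 tested genes (-0.01). Points of each row lie on both sides of 0 except in the membrane glutathione transferases, where 4 of 4 were lower and 0 called.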

How the data were processed

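The deposited table gives FPKM per gene and library, made by the authors from their reads, with gene lengths, coordinates and biotypes. DESeq2 1.20.0 and GRCm38 are listed per the submitters' processing notes, without their roles. The aligner, the counter and the treatment of reads with several matches: not given in the sources used here. BPA columns carry the library names; columns lettered C, with a number, were read as the vehicle replicates of that number because no further group exists. FPKM times gene length and a library size found from the steps between low values gave whole reads (tolerance 0.01) for 100% of values up to 20 reads. These sizes, 15474340 to 18315567, are not the totals of recovered reads, and what they count is not given.

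Genes were tested in limma (version 3.58.1, under R 4.3.3), taking log2(FPKM + 1) as input, a trended and robust variance, and no covariate, over 13376 genes with a mean of at least 0.5 FPKM, and checked on simulated data. This scale understates changes of low genes. Members and lists were chosen with earlier results of these data known. In each family the 5 highest members, and over all the 5 per direction with the smallest unadjusted p, were named, beside 10 fixed pathway genes; other members are given by range or reads. Gsta2, Ugt1a7c and Emcn were added after their values were seen. Copies were aligned with blastn 2.17.0 on the longest GENCODE M21 transcripts, and promoters came from RefSeq (GRCm38.p6). Figures used matplotlib 3.10.9. Alternatives covered the pseudocount, filters, scaling, voom on reads, a replicate block, GC content and each library left out. Leaving out both replicates 4 and a term for replicates 1 and 2 against 3 and 4 were chosen after seeing the data.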

Additional observations from a re-analysis of the deposited data

Results flagged for a closer look

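Among 80 groups of 4 libraries, for the 31 tested members and 9 fixed pathway genes, 11 had a library far from the other 3 of its group by Dixon's 95% criterion. Chance flags about 1 in 20 only where values are normally distributed and independent. Untransformed FPKM was used and the genes share the same libraries, so whether 11 exceeds chance was not tested. BPA replicate 1 gave 4 of them: Gstp3 at 18.5 FPKM against 0 to 0.501 in the other BPA libraries, Sult1b1 at 1.35 against 1.57 to 1.60, Gsto1 at 7.47 against 6.18 to 6.40, and Gclc at 102 against 90.5 to 92.3 FPKM. In BPA replicate 4, Mgst1 was at 4.90 FPKM against 12.5 to 13.6 and Papss2 at 183 against 99.3 to 102 FPKM. In vehicle replicate 3, Gstt1 was at 8.71 FPKM against 25.8 to 27.7 and Gstm5 at 87.9 against 70.3 to 73.2 FPKM. In vehicle replicate 2, Sult1c2 was at 87.5 FPKM against 113 to 115 and Ugt2b5 at 8.79 against 12.1 to 12.5 FPKM. Ugt2b38 in BPA replicate 3 was at 1597 FPKM against 1081 to 1156.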

How the results depend on the processing

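By limma, 0 conjugation enzyme genes and 0 pathway genes were called under each of the 18 alternatives, with 0 to 4 members at an unadjusted p under 0.05. Over all genes 1 was called; the count was 0 with limma-voom on recovered reads (3 members at an unadjusted p under 0.05), 0 with the replicate block (4 members) and 0 with the block and GC correction together, 2 with a term for replicates 1 and 2 against 3 and 4, and 0 to 4 when each library was left out (leaving out vehicle 1, vehicle 3 or BPA 2 gave 0, vehicle 2 or BPA 4 gave 2, vehicle 4 or BPA 1 gave 3, and BPA 3 gave 4). The cause was not tested. Of 322 values of the 18 named members, 304 kept their direction, 18 did not, and 0 passed the threshold (adjusted p 0.3002 at the lowest). Those that turned were small: with GC correction Sult1d1 (-0.08) and Ugt3a2 (-0.068), the same with the replicate block added; with a common total Ugt3a2 (-0.036); without both replicates 4 Gstm1 (0.073), Gstz1 (0.056), Sult1a1 (0.048) and Ugt2b38 (0.019). When each library was left out, Gstk1 ran from -0.396 to 0.003, Gstm1 from -0.445 to 0.097, Gstz1 from -0.094 to 0.075, Ugt3a1 from -0.192 to 0.009 and Ugt3a2 from -0.024 to 0.062. Without reversal, but by more than 1.5 times, single libraries also moved Gstm5 (-0.258 to -0.111), Gstt2 (-0.501 to -0.173), Sult1a1 (-0.283 to -0.025), Sult1b1 (-0.123 to -0.011) and Ugt8a (-0.329 to -0.042). GC correction moved other changes both ways. Those moved away from 0 included Ugt2b38 (-0.184 to -0.313), Ugt8a (-0.16 to -0.307), Sult1b1 (-0.067 to -0.223) and Ugt2b5 (-0.551 to -0.676). Those moved towards 0 included Gstm1 (-0.223 to -0.13), Gstp1 (-0.368 to -0.234) and Ugt2b37 (0.352 to 0.22). Deviations of same-numbered libraries correlated at -0.0329 to 0.138. Such low values cannot settle whether the numbers pair libraries. Vehicle library 1 correlated best with BPA library 1 and vehicle library 3 with BPA library 3, the others not with their own number. A count of 0 allows up to 0.0753 to 0.262 FPKM in the 12 members without reads, and reads of near-identical copies and shared Ugt1a exons limit those genes at any depth.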
